A study of Homo sapiens
Mus musculus with 16 samples.

Results

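Macrophage genes of the mouse host were read in human breast tumours grown in mice, to describe how their levels lay across tumours that had received a chemotherapy, a monoamine oxidase inhibitor, both or neither. The set holds 10 genes of the 48795 in the mouse count matrix, chosen by their Ensembl IDs as widely used markers and products of macrophages: Adgre1 (ENSMUSG00000004730), Cd68 (ENSMUSG00000018774), Csf1r (ENSMUSG00000024621), Mrc1 (ENSMUSG00000026712), Cd163 (ENSMUSG00000008845), Itgam (ENSMUSG00000030786), Lyz2 (ENSMUSG00000069516), C1qa (ENSMUSG00000036887), C1qb (ENSMUSG00000036905) and C1qc (ENSMUSG00000036896). The rule of the set uses no value measured here, but earlier results of these data were known when it was chosen. The symbols come from the definition of the set, since the count matrices list IDs only.

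Tumours were formed by MDA-MB-231, a human triple-negative breast cancer line, after injection of 2 M cells in 50 µl of PBS and Matrigel at the mammary fat pad of Balb/c nude mice, and were taken at 50 days. All 16 mice thus carried the same human line and the same nude background, which leaves few mature T cells but keeps macrophages, neutrophils, NK cells and B cells. The 4 groups of 4 mice were vehicle alone, nab-paclitaxel (Abraxane, paclitaxel bound to albumin) at 30 mg/kg on days 15, 22 and 29, phenelzine (a monoamine oxidase inhibitor that also acts on the histone demethylase LSD1) at 40 mg/kg every day from day 15, and the combination of both; all injections were intraperitoneal. The labels give no age, and each mouse gave 1 mRNA library from a whole piece of tumour.

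Macrophages in a tumour arise largely from blood monocytes that enter the tissue, and partly from resident cells. They depend on signals through the receptor CSF1R, engulf dead cells and debris, break them down in lysosomes, and secrete lysozyme and the complement component C1q. Macrophages of different origin and state carry different surface receptors, so that the receptors CD206, CD163 and CD11b need not rise and fall together. In bulk tumour RNA, fewer cells of a type and less RNA per cell cannot be told apart.

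Mouse totals ranged from 3.46 to 27.4 M counts and human totals from 11.1 to 34.5 M, so that the mouse share of all counts ran from 9.25% to 71.2%. Levels are given as CPM, the counts of a gene scaled to a common mouse total of the library, that is, relative to all host RNA counted. Nab-paclitaxel 1 and 4 and combination 1 and 3 stood apart from the other 12 libraries in the first principal component of the human genes, and their mouse shares were 41.9% to 71.2%; a fitted fold change that moves by over 1.5 times without them, or without 1 library, is given with that value. Without these 4 libraries, only nab-paclitaxel 2 and 3 and combination 2 and 4 remain in their groups. All 10 genes had counts in all 16 libraries, from 19 counts of Cd163 in vehicle 1 to 374839 of Lyz2 in combination 1, and all 10 passed the filter on low counts. Macrophage RNA was therefore present in every tumour as far as these markers show it, and the 10 genes together made up 0.465% (vehicle 2) to 1.98% (combination 1) of the mouse counts.

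With edgeR, none of the 10 host macrophage genes passed the test for a changed share of host RNA in any of 8 comparisons of the treatments. DESeq2 called Lyz2 in 2 of them, where the share of all mouse genes it called is not given here. Lysozyme (Lyz2) had the largest differences, at 6402 CPM in the combination group against 1613 to 2009 CPM in the other groups, with most of the excess in 2 of the 4 tumours. Single tumours of a group differed by up to 15.7-fold, and they differed gene by gene: the 3 C1q genes kept step with each other, while Cd163 and Lyz2 did not follow them.

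Adgre1 encodes an adhesion receptor (EMR1), the surface protein by which mouse macrophages are most often recognised. Its level was 167, 82.2, 255 and 98.0 CPM in vehicle 1 to 4 and 287, 222, 220.1 and 324 CPM in nab-paclitaxel 1 to 4. It was 152, 239, 232 and 179 CPM with phenelzine and 146, 54.2, 346 and 184 CPM with the combination. Of the 4 vehicle tumours 3 lay below every nab-paclitaxel tumour and vehicle 3 lay within their range; the combination group spanned the whole range of the series, with combination 2 lowest and combination 3 highest of all 16. In order of their means, the groups were nab-paclitaxel (263 ± 51.0 CPM, SD, n = 4), phenelzine (201 ± 41.9), combination (182 ± 122) and vehicle (150.5 ± 78.6), and the libraries of each pair of neighbours in that order overlapped.

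Csf1r, the receptor for the macrophage growth factors CSF1 and IL-34, had the same order of the 2 outer groups. It stood at 632, 397, 739 and 372 CPM in vehicle 1 to 4, and at 934, 654.5, 732 and 1115.5 CPM in nab-paclitaxel 1 to 4. Values with phenelzine were 546, 774, 660.1 and 589 CPM, and with the combination 768, 603, 1203 and 699 CPM. Means were 859 ± 208 CPM with nab-paclitaxel, 818 ± 265.2 with the combination, 642 ± 99.6 with phenelzine and 535 ± 179 with vehicle (SD, n = 4), again with overlap between neighbours. Across the 16 tumours Csf1r varied 3.23-fold, against 6.38-fold for Adgre1.

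C1qa, C1qb and C1qc encode the 3 chains of C1q, the molecule that starts the classical complement pathway and that tissue macrophages make in large amounts. C1qa was at 1988, 741, 1819.7 and 1218 CPM in vehicle 1 to 4 and at 2044, 1791, 2067 and 2183.5 CPM in nab-paclitaxel 1 to 4. With phenelzine it was at 1511, 2012, 1775.5 and 1726 CPM, and with the combination at 1485, 1174, 2407.5 and 2271 CPM. The nab-paclitaxel tumours were the tightest group (2021 ± 165 CPM, SD, n = 4) and the vehicle and combination tumours the widest (1442 ± 572 and 1834 ± 599). C1qb ranged from 579 CPM in vehicle 2 to 1842 CPM in combination 3 and C1qc from 515 to 1572 CPM in the same 2 tumours, with group means of 1135 ± 493, 1607 ± 114, 1364 ± 184 and 1361 ± 436 CPM for C1qb and 978 ± 403, 1262 ± 131, 1176 ± 154 and 1153 ± 388 CPM for C1qc (vehicle, nab-paclitaxel, phenelzine and combination). For each of the 3 genes the nab-paclitaxel group had the highest mean and the vehicle group the lowest, with overlapping libraries.

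Mrc1 and Cd163 encode the mannose receptor CD206 and the haemoglobin scavenger receptor CD163, both used as markers of resident and alternatively activated macrophages. Mrc1 was at 78.3, 133, 236 and 162 CPM with vehicle, 167, 251.4, 159 and 115 CPM with nab-paclitaxel, 99.9, 301, 121 and 185 CPM with phenelzine, and 167, 203.5, 173 and 120.4 CPM with the combination. Its 4 group means lay between 152 and 177 CPM, beside SDs of 34.4 to 90.4 CPM within groups. No group stood out, and the highest tumour of the series was phenelzine 2.

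Cd163 had the fewest counts of the set and the widest range, 31.9-fold between its lowest and highest tumour. It was at 3.65, 19.4, 34.3 and 36.0 CPM in vehicle 1 to 4, where the 19 counts of vehicle 1 give an exact Poisson interval of 2.20 to 5.69 CPM (95%, counting error only). The other groups read 8.75, 44.9, 9.73 and 2.86 CPM with nab-paclitaxel, 23.0, 91.1, 13.0 and 17.9 CPM with phenelzine, and 4.82, 31.7, 4.84 and 17.1 CPM with the combination. Each group held both low and high tumours, and each overlapped with every other. The 4 libraries that stood apart by their human genes were among the 5 lowest for Cd163, at 2.86 to 8.75 CPM, together with vehicle 1, whose mouse share was 13.8%. The part of host RNA content in that arrangement was not tested.

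Cd68 encodes a protein of lysosomes and endosomes of phagocytes. It was at 568, 186, 528 and 402 CPM with vehicle, 398.5, 434, 345.5 and 366 CPM with nab-paclitaxel, 438.5, 456, 567 and 490.5 CPM with phenelzine, and 963, 363, 463 and 376 CPM with the combination. Combination 1 was the highest of all 16 and vehicle 2 the lowest, and the other 14 tumours lay between 345.5 and 568 CPM. Unlike Adgre1, Csf1r and C1q, Cd68 had its lowest mean in the nab-paclitaxel group, at 386 ± 38.9 CPM (SD, n = 4) against 421 ± 172 with vehicle, 488 ± 56.9 with phenelzine and 541 ± 285 with the combination.

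Lyz2 encodes lysozyme M, a secreted enzyme that cuts bacterial cell walls; monocytes and neutrophils make it as well as macrophages. The near-identical gene Lyz1 can share reads with it, so the division of reads between the 2 is uncertain. Lyz2 was at 1535, 1892, 3537 and 1071 CPM in vehicle 1 to 4, and at 3427, 1845, 962 and 1638 CPM in nab-paclitaxel 1 to 4. Values with phenelzine were 1264.5, 2077, 1919 and 1191 CPM, and those with the combination 13685, 5721, 3956 and 2245 CPM. All 4 combination tumours lay above all 4 phenelzine tumours, while combination 4 lay within the vehicle and the nab-paclitaxel ranges. The mouse shares of combination 1 to 4 were 71.2%, 47.4%, 55.9% and 18.6%. In combination 1 and 2, Lyz2 alone made up 69.2% and 58.6% of the counts of the 10 genes, against 13.0% to 40.7% in the other 14 tumours.

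Itgam encodes CD11b, the alpha chain of complement receptor 3, which neutrophils, monocytes and NK cells carry along with macrophages. It was at 266.7, 103, 370.2 and 155 CPM with vehicle, 144, 171, 159.6 and 273 CPM with nab-paclitaxel, 248.4, 258.5, 383 and 219 CPM with phenelzine, and 351, 93.7, 238 and 189 CPM with the combination. Phenelzine had the highest mean (277 ± 72.6 CPM, SD, n = 4), ahead of vehicle (224 ± 119), combination (218 ± 107) and nab-paclitaxel (187 ± 58.3), and all 4 ranges overlapped. The genes that would set neutrophils, monocytes and NK cells apart from macrophages could not be matched to IDs of the mouse matrix and were not analysed here, so the part of those cells in the Itgam and Lyz2 levels was not tested.

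**Figure D1:**
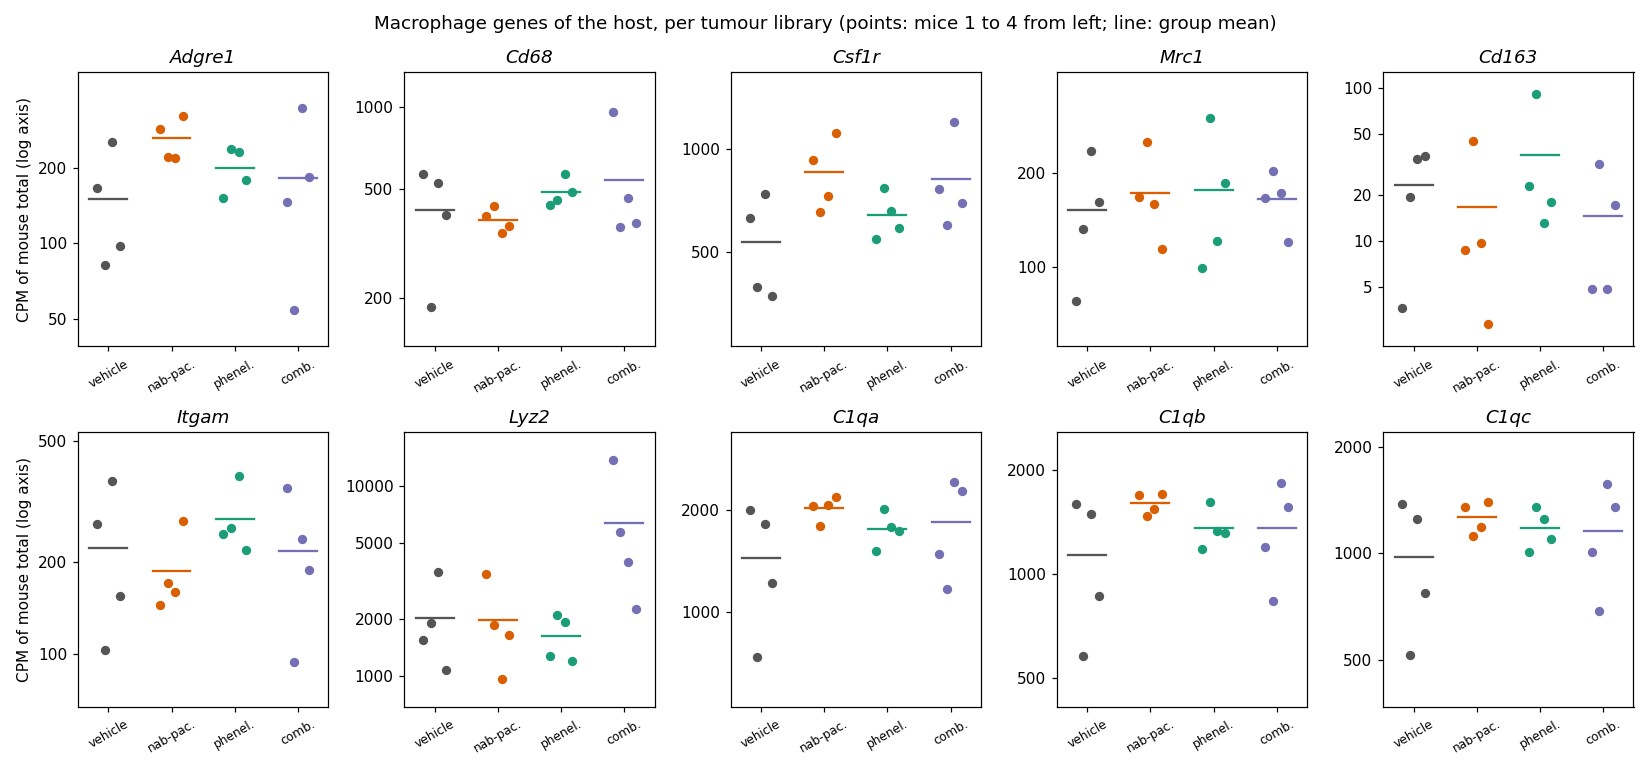
Level of each of the 10 host macrophage genes in CPM of the mouse total (log axis, own range in each panel) in the 4 groups; each point is 1 tumour library, mice 1 to 4 from left to right, and the line is the group mean. Every pair of groups that was compared overlaps in every panel except 1: for Lyz2 the 4 combination tumours (2245 to 13685 CPM) lie above the 4 phenelzine tumours (1191 to 2077 CPM), a comparison in which 11.0% of all mouse genes did not overlap. Nab-paclitaxel and phenelzine were not compared. Between them Cd68 does not overlap (345.5 to 434 against 438.5 to 567 CPM), and the share of all mouse genes was not computed.

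Some tumours were low in several of these genes at once, but not in all of them. Vehicle 2 and combination 2 held the lowest 2 values of 5 genes: Adgre1, Itgam, C1qa, C1qb and C1qc. In both tumours Cd68 (186 and 363 CPM) and Csf1r (397 and 603 CPM) were also below most others. In combination 2, Mrc1 (203.5 CPM), Cd163 (31.7 CPM) and Lyz2 (5721 CPM) were above the medians of all 16 tumours (164, 17.5 and 1905 CPM). In vehicle 2, Cd163 (19.4 CPM) was above its median, and Mrc1 (133 CPM) and Lyz2 (1892 CPM) were below theirs. These 2 libraries had mouse shares of 37.8% and 47.4%, above the 9.25% to 23.4% of 10 other libraries, and the 2 highest TMM scaling factors, 1.09 and 1.11. The part of the mouse share or of other host cells in these low values was not tested. Without Lyz2, the other 9 genes summed to between 2755 CPM in vehicle 2 and 8250 CPM in combination 3.

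**Figure D2:**
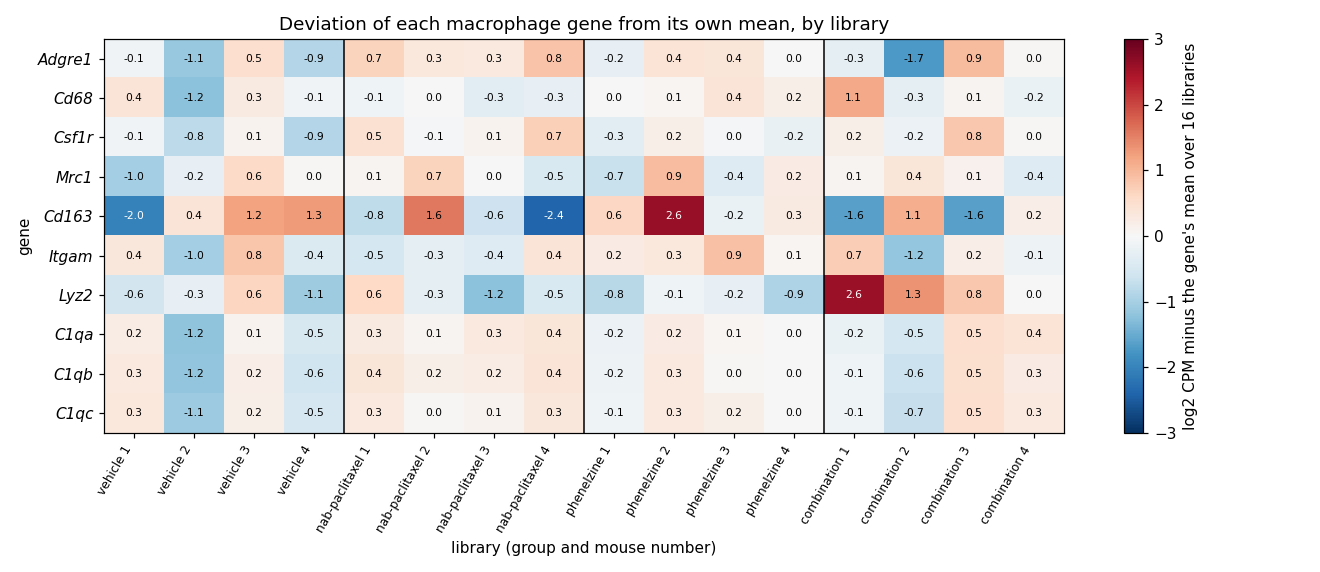
Deviation of each gene (rows) from its own mean over the 16 libraries (columns, by group and mouse), in log2 CPM, with colour from blue (lower) to red (higher) and the value in each cell. The rows of C1qa, C1qb and C1qc run closely together, vehicle 2 is low for most genes, and the extremes lie in Cd163 and Lyz2.

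Ratios within a library show which genes kept step, since the scaling cancels; they were chosen after the values were seen. The C1q chains kept a narrow proportion over all 16 tumours. C1qb was 0.689 to 0.831 of C1qa (mean 0.774 ± 0.0430, SD, n = 16) and C1qc was 0.573 to 0.705 of C1qa (0.649 ± 0.0402), so the ratios varied 1.21-fold and 1.23-fold while C1qa itself varied 3.25-fold. Within that narrow band C1qc was 0.757 to 0.817 of C1qb in the nab-paclitaxel tumours and 0.835 to 0.895 in the vehicle tumours, without overlap; this difference was not tested. These are ratios of CPM and say nothing on molar amounts, because gene lengths were not used. Between the scavenger receptors, by contrast, the ratio of Cd163 to Mrc1 ran from 0.0249 in nab-paclitaxel 4 to 0.303 in phenelzine 2, a 12.2-fold range. The ratio of Lyz2 to C1qa ran from 0.466 in nab-paclitaxel 3 to 9.22 in combination 1, a 19.8-fold range; it was 9.22, 4.87, 1.64 and 0.989 in combination 1 to 4 and 0.466 to 2.55 in the other 12 tumours.

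Each of the other 9 genes was also set against Adgre1, in the 5 comparisons between groups. Itgam was 1.25 to 1.60 times Adgre1 in the vehicle tumours and 0.502 to 0.842 times in the nab-paclitaxel tumours, with no overlap. The mean log2 ratio was lower by 1.07, which is 2.10-fold (exact permutation p = 0.0286, two-sided, the smallest that 4 against 4 mice can give). Cd68 was 2.07 to 4.11 times Adgre1 with vehicle and 1.13 to 1.95 times with nab-paclitaxel, also without overlap and with the same exact p. All 9 ratios to Adgre1 had a lower mean log2 with nab-paclitaxel than with vehicle, from -0.22 for Csf1r to -1.68 for Cd163. In the fit Adgre1, the denominator, was 0.80 higher, beside -0.27 for Itgam and -0.16 for Cd68. A lower ratio to Adgre1 was therefore no trait of Itgam and Cd68 alone. Over the 45 tests of this family, 5 had groups that did not overlap, and the lowest Benjamini-Hochberg adjusted p was 0.257, so no ratio passed adjustment. The other 3 were Csf1r to Adgre1 in the combination against nab-paclitaxel (log2 difference 0.70), Lyz2 to Adgre1 in phenelzine against vehicle (-0.75) and Lyz2 to Adgre1 in the combination against phenelzine (2.11). All 5 share Adgre1 as denominator and are not independent of each other, and the pairs of groups share tumours too. Since no exact p can be below 0.0286 here, a few ratios could not pass adjustment over 45 tests, whatever their size. The lack of a ratio past adjustment therefore says little about these differences. The share of all mouse genes whose ratio to Adgre1 did not overlap was not computed. The count of 5 is therefore no result about these genes in particular.

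The difference of Itgam to Adgre1 was similar in size whichever of the 8 tumours was left out, at -1.16 to -0.91 on the log2 scale, and was -0.97 without the 4 libraries that stood apart. That of Cd68 to Adgre1 was -1.09 to -0.76 with 1 tumour left out and -0.70 without those 4 libraries. Both ratios were picked because their groups did not overlap, so leaving out tumours could not turn the sign. Phenelzine tumours had Itgam at 1.08 to 1.65 times and Cd68 at 1.91 to 2.88 times Adgre1, overlapping with vehicle. The Itgam range of phenelzine lay above that of nab-paclitaxel (0.502 to 0.842 times), a pair of groups that was not compared. Combination tumours had Itgam at 0.689 to 2.40 times and Cd68 at 1.34 to 6.70 times Adgre1, overlapping with each of the other groups.

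**Figure D3:**
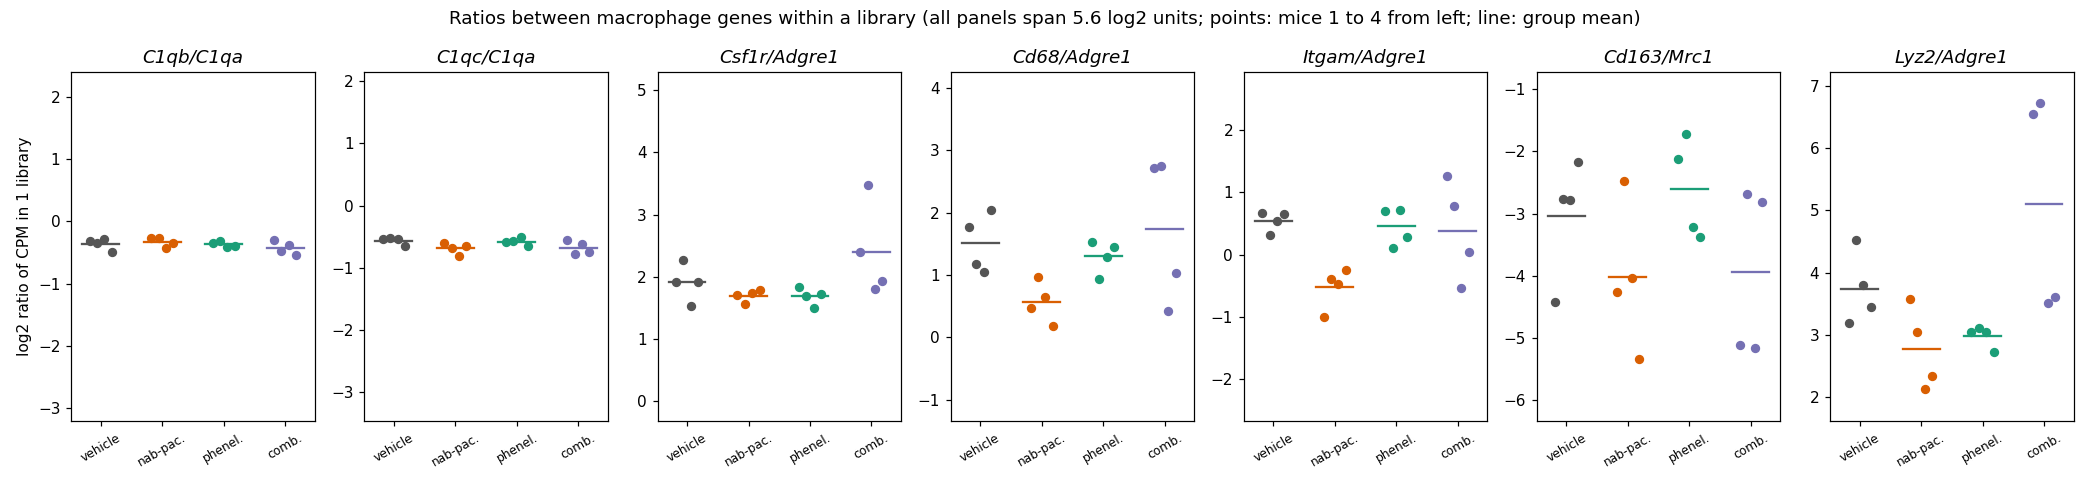
log2 ratios between macrophage genes within a library, by group; each point is 1 tumour, the line is the group mean, and every panel spans the same number of log2 units so that widths can be compared. The C1q ratios form flat bands, Itgam to Adgre1 and Cd68 to Adgre1 are lower in all 4 nab-paclitaxel tumours than in all 4 vehicle tumours, and Cd163 to Mrc1 and Lyz2 to Adgre1 scatter widely.

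Nab-paclitaxel against vehicle addresses what the chemotherapy left in host macrophage RNA weeks after its last dose. With nab-paclitaxel 6 of the 10 genes had a higher fitted level and 4 a lower one, with a median log2 fold change of 0.26 beside -0.04 over all 15074 mouse genes tested. The largest log2 fold changes of the set were 0.80 for Adgre1 (SE 0.452, edgeR adjusted p = 0.503) and 0.67 for Csf1r (SE 0.281, edgeR adjusted p = 0.370), and neither passed. The quasi-likelihood test of edgeR called 0 of the 10, with 1 of them, Csf1r, under 0.05 before adjustment (edgeR unadjusted p = 0.0302, adjusted p = 0.370), and DESeq2 and limma-voom called 0 of the 10. Of all mouse genes 0% were called by edgeR, 221 genes by DESeq2 and 1 by limma-voom, and 1799 had an unadjusted p under 0.05. The libraries of the 2 groups did not overlap for 0 of the 10 genes, against 5.58% of all genes. Without nab-paclitaxel 1 and 4 and the other libraries that stood apart, Csf1r was 0.35 higher.

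Phenelzine against vehicle addresses the drug alone. Fitted levels were higher for 9 of the 10 genes and lower for Lyz2, with a median log2 fold change of 0.25 beside -0.04 over all genes and -0.29 where the total of both species was the library size. Cd163 was 0.64 higher (SE 0.882, edgeR adjusted p = 0.936) and Adgre1 0.41 higher (SE 0.451, edgeR adjusted p = 0.911). The Cd163 difference turned to -0.34 without phenelzine 2, and was 0.30 without vehicle 1 and 0.99 without vehicle 4. Adgre1 was 0.20 higher without vehicle 2 and 0.77 higher without vehicle 3. edgeR called 0 of the 10, also 0 at an unadjusted p under 0.05, and DESeq2 and limma-voom called 0. edgeR called 0% of all mouse genes, DESeq2 called 11 and limma-voom 0, and 921 had an unadjusted p under 0.05. The groups did not overlap for 0 of the 10 genes and for 2.07% of all.

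The combination against vehicle had the largest difference from untreated tumours in the set. Lyz2 was 1.69 higher on the log2 scale (SE 0.542, 95% interval 0.53 to 2.85, edgeR unadjusted p = 0.00730 and adjusted p = 0.243), which did not pass. Without combination 1 it was 0.93 higher, without the 4 libraries that stood apart 0.91, and with the mouse share as a covariate 0.38 (edgeR adjusted p = 0.906); DESeq2 gave 1.69 with an adjusted p of 0.0477, past the threshold. Cd163 was next in size at -0.74 (SE 0.883, edgeR adjusted p = 0.734). It was at 0.0034 without the 4 libraries that stood apart, at -0.46, -1.39 and -0.45 without combination 1, 2 and 3, and at -0.41 without vehicle 4, and it changed sign under 3 alternatives. Fitted levels were higher for 8 genes and lower for 2, with a median of 0.24 against -0.03 over all genes; with limma-voom and library weights 4 were higher and 6 lower. edgeR called 0 of the 10 genes, where 1 had an unadjusted p under 0.05; with DESeq2 the count was 1 and with limma-voom 0. The share of all mouse genes called by edgeR after adjustment was 0.0332%. The share under 0.05 before adjustment is not given here, so the 1 gene is no result about the set. The share called by DESeq2 is not given here, and DESeq2 called more genes than edgeR wherever both counts are printed. Its 1 call therefore cannot be set against the edgeR share. The groups did not overlap for 0 of the 10 and for 4.60% of all genes.

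The combination against nab-paclitaxel addresses what phenelzine adds to the chemotherapy. Lyz2 was 1.71 higher (SE 0.543, edgeR unadjusted p = 0.00667, adjusted p = 0.794) and 0.94 higher without combination 1. Adgre1 was second in size, at -0.54 (SE 0.450, edgeR adjusted p = 0.873), with -1.03 without combination 3, -0.22 without combination 2, and -0.89 with all 4 libraries that stood apart left out. The fitted level was higher for 3 genes and lower for 7, and the median was -0.11 beside 0.01 over all genes. edgeR called 0 of the 10 and 0.0199% of all genes after adjustment. Before adjustment 1 of the 10 had a p under 0.05 with edgeR. The share of all genes under 0.05 before adjustment is not given here, so that 1 gene is no result about the set. DESeq2 and limma-voom also called 0 of the 10. Non-overlap was found for 0 of the 10 and 3.68% of all.

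The combination against phenelzine addresses what the chemotherapy adds to phenelzine. Here Lyz2 was 1.99 higher (SE 0.548, 95% interval 0.82 to 3.16, edgeR unadjusted p = 0.00256, adjusted p = 0.172), and it was the 1 gene of the 10 whose libraries did not overlap between the groups, against 11.0% of all mouse genes. Without combination 4, the lowest combination tumour for Lyz2, the difference was 2.27 and passed (edgeR adjusted p = 0.0416); it was 1.21 without combination 1, and 1.22 with all 4 libraries that stood apart left out. DESeq2 also put it past the threshold (adjusted p = 0.0114), limma-voom did not (adjusted p = 0.0758), and with the mouse share as a covariate it was 0.39 (edgeR adjusted p = 1.0). The log2 fold change of Cd163 was -1.38 (SE 0.891, edgeR adjusted p = 0.412), with -0.41 without phenelzine 2 and -0.63 without the 4 libraries that stood apart. Of the 10 genes 4 had higher and 6 lower fitted levels, with a median of -0.04 against 0.03 over all genes. edgeR called 0 of the 10, DESeq2 1 and limma-voom 0, where edgeR called 0.00663% of all genes after adjustment. Before adjustment 1 of the 10 was under 0.05 with edgeR, and the share of all genes under 0.05 is not given beside it. The share of all genes called by DESeq2 is not given here, so its 1 call has no share of its own tool beside it.

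The interaction asks whether the difference made by both drugs departs from the sum of the 2 single ones on the log2 scale. Lyz2 had the largest departure, 2.01 above the sum (SE 0.754, edgeR unadjusted p = 0.0178, adjusted p = 0.597), and 1.22 without combination 1. Adgre1 followed at -0.95 (SE 0.637, edgeR adjusted p = 0.677), with -1.44 without combination 3. Cd68 was the other gene above 0 and 8 were below it, with a median of -0.37 over the 10 and 0.06 over all genes. edgeR called 0 of the 10, 1 at an unadjusted p under 0.05, and DESeq2 and limma-voom 0. Of the whole mouse matrix edgeR called 0%, DESeq2 18 genes and limma-voom 1, and 1228 genes had an unadjusted p under 0.05.

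Averages over both states of the other drug use 8 tumours a side. On average with nab-paclitaxel, Lyz2 was 0.98 higher (SE 0.377, edgeR adjusted p = 0.163), 0.60 without combination 1, 0.35 without the 4 libraries that stood apart and -0.17 with the mouse share as a covariate. Cd163 was at -0.94 (SE 0.626, edgeR adjusted p = 0.412), with -1.55 without nab-paclitaxel 2, -0.45 without phenelzine 2 and -0.21 without the 4 libraries that stood apart. Of the 10 genes 7 had higher and 3 lower levels (median 0.19, all genes -0.01), and edgeR, DESeq2 and limma-voom called 0. Before adjustment 2 genes were under 0.05, Lyz2 (edgeR unadjusted p = 0.0203, adjusted p = 0.163) and Csf1r (edgeR unadjusted p = 0.0239, adjusted p = 0.173), the latter named after its value was seen. The share of all mouse genes under 0.05 before adjustment is not given beside them, so their count is no result about the set. The log2 fold change of Csf1r was 0.50, and 0.17 without the 4 libraries that stood apart. This was the comparison with the most calls in the mouse matrix, 120 genes or 0.796%, 49 of them higher and 71 lower. On average with phenelzine, Lyz2 was 0.71 higher (SE 0.375, edgeR adjusted p = 0.993) and Cd68 0.34 higher (SE 0.257, edgeR adjusted p = 0.993), with 0.33 and 0.11 without combination 1. Cd68 was 0.22 higher without vehicle 2 and 0.04 higher without the 4 libraries that stood apart. Levels were higher for 8 genes and lower for 2 (median 0.08, all genes -0.02). edgeR called 0 of the 10, 0 at an unadjusted p under 0.05, DESeq2 and limma-voom 0, and edgeR 0.0265% of all genes.

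**Figure D4:**
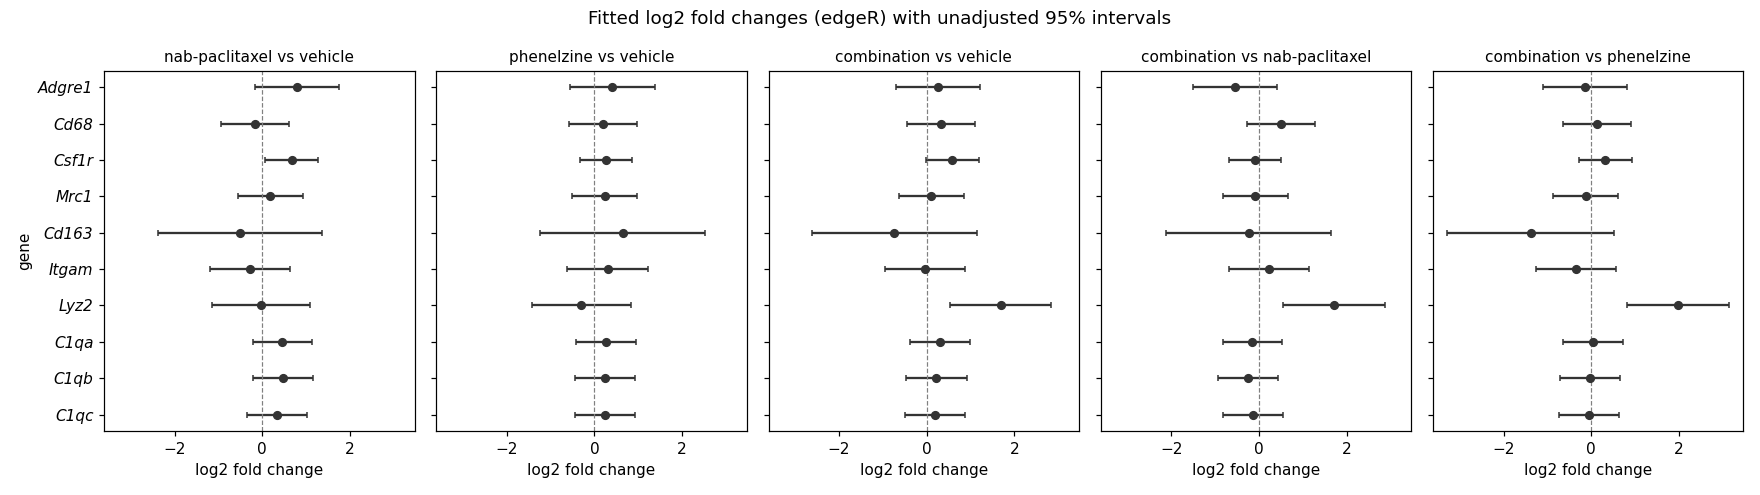
Fitted log2 fold changes (edgeR) of the 10 genes in the 5 comparisons between groups, with unadjusted 95% intervals. Most intervals span 0; those of Lyz2 lie above it in all 3 comparisons that involve the combination (1.69, 1.71 and 1.99) and that of Csf1r in nab-paclitaxel against vehicle (0.67), Cd163 has the widest intervals, and no gene passed adjustment over all 15074 mouse genes.

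A level in CPM of the mouse total says how much of the host RNA the macrophage genes make up; a level in CPM of both totals says how much of the whole tumour RNA they make up. The 2 scales differ by the mouse share of the library, which multiplies every mouse gene alike. On the scale of both species, C1qa was at 274, 280.4, 345 and 166 CPM in vehicle 1 to 4 and at 151, 307, 164 and 278 CPM in phenelzine 1 to 4. It was at 1221, 419, 435 and 916 CPM with nab-paclitaxel and at 1057, 557, 1345 and 423 CPM with the combination. All 8 tumours that received nab-paclitaxel thus lay above all 8 that did not. C1qb and C1qc separated likewise, and no other gene of the set did. The share of all mouse genes that separated in this way on this scale was not computed. The separation is therefore no result about the C1q genes in particular. Adgre1 did not separate so, with 25.7 to 193 CPM in the 8 tumours with nab-paclitaxel and 13.3 to 48.3 CPM in the others, because combination 2 and 4 (25.7 and 34.2 CPM) were within the lower range.

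In fits with the total of both species as library size, 9 of the 10 genes, all but Cd163, passed as higher in the combination against phenelzine, and the same 9 in the average over nab-paclitaxel (edgeR, adjusted p under 0.05). These counts stand against 86.3% and 83.8% of all 15074 mouse genes called higher in the same fits, 13013 and 12635 genes, with 34 genes called lower in the latter. The scaling moved the median log2 fold change of all genes by 2.00 and 1.35, and the medians of the 10 genes were 1.87 and 1.66. Per count of the whole tumour, then, these genes were higher in those comparisons along with the host genes as a whole.

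**Figure D5:**
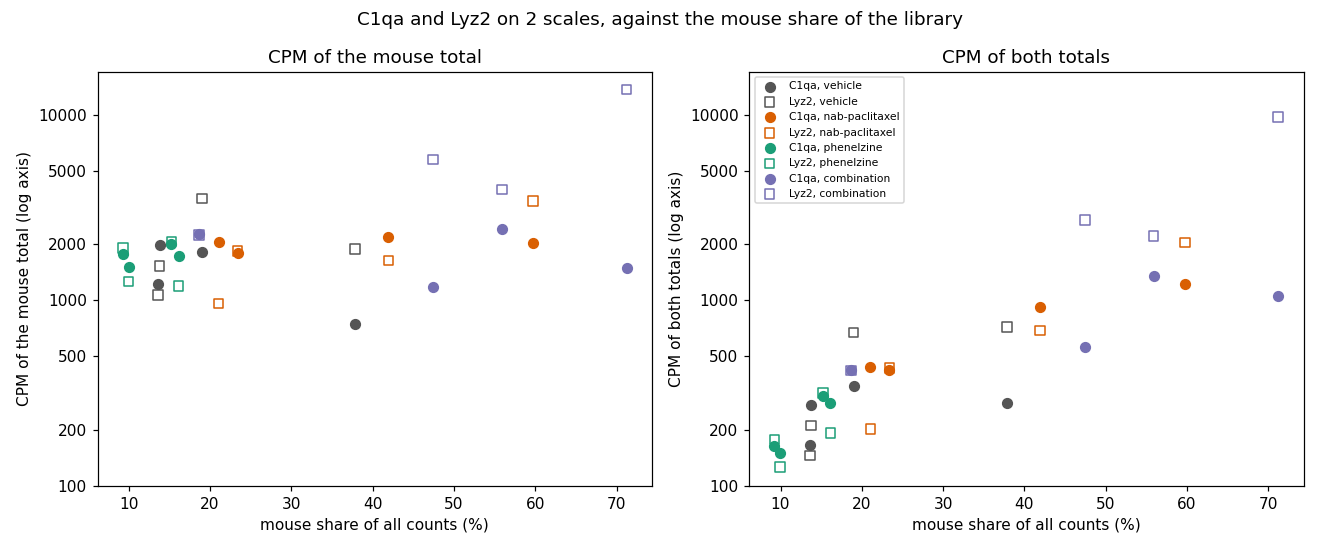
Levels of C1qa (filled circles) and Lyz2 (open squares) in each of the 16 tumours against the mouse share of its counts, in CPM of the mouse total (left) and CPM of both totals (right), both on log axes and coloured by group. On the left C1qa stays between 741 and 2407.5 CPM. On the right it runs from 151 to 1345 CPM, with the 8 tumours that received nab-paclitaxel at 419 CPM or more. How many of all mouse genes separate those 8 tumours from the others on the right-hand scale was not computed.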

How the data were processed

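Whole-number counts per gene were deposited by the authors as a human and a mouse matrix over the same 16 libraries. The submitters' processing notes name Trimmomatic 0.36, HISAT2 2.04, Picard, StringTie, edgeR and the builds hg38 and mm10, without roles. The division of reads between species, the strand setting, the annotation and any removal of duplicates were not stated in the labels or file headers used, and the mouse counts stand for host RNA only if that division was right. Libraries were grouped by their titles, and 0 columns were left unused.

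The whole mouse matrix was tested with edgeR 4.0.16 (R 4.3.3): TMM scaling, the default filter (minimum count of 10), 1 mean per group, 12 residual degrees of freedom, the quasi-likelihood F test, and Benjamini-Hochberg adjustment over 15074 genes at a threshold of 0.05. CPM uses the mouse column total. DESeq2 1.42.0 and limma 3.58.1 (voom) were alternatives, beside other scalings, no filter, the mouse share as covariate, a replicate block and left-out libraries. The test was checked on simulated data. Each library came from 1 mouse, so p-values measure the spread between mice and libraries together. Intervals on counts cover counting error only.

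Fold changes are printed for the 2 largest of the 10 genes in each comparison and for any past the threshold. The genes and lists were chosen with earlier results of these data known. A further 67 symbols in 13 lists of macrophage, other immune and stromal genes were not analysed here, since 0 mouse IDs matched a symbol in the reference table; for the same reason no coordinates, lengths or sequences were used and levels are not compared between genes other than as ratios across tumours.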

Additional observations from a re-analysis of the deposited data

Results flagged for a closer look

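Of 40 sets of 4 tumours (10 genes in 4 groups), 3 held a tumour far from the others of its group by Dixon's gap test at its 95% critical value. Chance gives about 1 in 20 such sets. Cd68 in combination 1 was at 963 CPM, where the other combination tumours were at 363 to 463 CPM (gap 0.834 of the range). Cd163 in nab-paclitaxel 2 was at 44.9 CPM, with 2.86 to 9.73 CPM in the rest of that group (gap 0.837). Cd163 in phenelzine 2 was at 91.1 CPM, with 13.0 to 23.0 CPM in the rest (gap 0.872); phenelzine 2 was also the highest of all 16 tumours for Mrc1, at 301 CPM.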

How the results depend on the processing

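No gene of the 10 was called with edgeR in any comparison, and 200 of the counts of called genes recomputed under alternatives were again 0. The exceptions were 1 called gene with DESeq2 in the combination against vehicle and 1 in the combination against phenelzine (Lyz2 both times), 0 to 1 with single libraries left out in the latter (1 without combination 4), and 9 in the latter and 9 in the average over nab-paclitaxel with the total of both species. For the calls with DESeq2, the share of all mouse genes called is not given here. Fold changes kept their direction and side of the threshold in 396 recomputations, and came past the threshold in 5, the Lyz2 cases just named. Signs turned with the total of both species for Adgre1 in phenelzine against vehicle (-0.18) and in the interaction (0.0010), and for Cd163 in the combination against vehicle (0.34) and against phenelzine (0.26) and in the average over nab-paclitaxel (0.12). They also turned with the mouse share as covariate for Cd163 in the combination against vehicle (0.13) and Lyz2 in the average over nab-paclitaxel (-0.17), and, without the 4 libraries that stood apart, for Cd163 in the combination against vehicle (0.0034). With single libraries left out, Cd163 in phenelzine against vehicle ran from -0.34 to 0.99. The cause was not tested. With limma-voom, 5 of the 10 genes were higher in phenelzine against vehicle, where edgeR had 9. Calls over all mouse genes moved more: the average over nab-paclitaxel had 120 with edgeR, 1299 with DESeq2, 898 with limma-voom, 63 without a filter, 1 with the mouse share as covariate and 0 without the 4 libraries that stood apart. The last of these fits held fewer tumours in the nab-paclitaxel and combination groups. The part of the lower number of tumours in its count was not tested.

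Deviations from the group means had a median r of 0.097 between mice of the same number in different groups (-0.17 to 0.31, 11 of 24 pairs over 0.1). Between mice of different numbers the median was -0.0090. Whether the numbers pair the samples is not stated and was not tested, and the main fit does not pair them. With a replicate block 0 of the 10 genes were called in each of the 8 comparisons. Adgre1 in the interaction moved from -0.95 to -1.32 with that block (edgeR unadjusted p = 0.0453, adjusted p = 0.528). Depth limits Cd163 most, with as few as 19 counts in a library.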
